A study of Sus scrofa with 105 samples.

Results

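The comparison described here is that of hippocampus and amygdala taken 1 day after diffuse traumatic brain injury with the same tissue of uninjured piglets. Its members are 28 small RNA libraries of 105 in the series, chosen by the labelled brain region and group: 10 libraries of the group injured 1 day earlier and 18 of the group labelled Sham/Naïve. All animals were female pigs (Sus scrofa), the tissue had been fixed in formalin and embedded in paraffin, and neither group received a drug. The uninjured animals had survival times of 0 to 8 days, and sham and naive animals carry 1 label and cannot be told apart. Levels are set beside 15 libraries of the same region from untreated animals 6 to 8 days after injury (1 week group) and 10 from animals injured and given cyclosporin A (CsA) at 20 mg/kg/day and killed at 30 h. Age and strain are not given in the labels, and hippocampus and amygdala carry 1 label in each library, so the 2 structures cannot be separated. As in any bulk tissue, fewer cells of a type and less RNA per cell cannot be told apart.

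MicroRNAs (miRNAs) are short RNAs that lower the stability and translation of messenger RNAs carrying sites for their 5′ end, the seed. Each is cut from a hairpin precursor whose 5p and 3p arms can both be kept, usually in very unequal amounts, and neighbouring hairpins are often cut from 1 transcript. The hippocampus and amygdala serve memory and emotion, and their neurons are rich in miR-9, miR-124, miR-128 and miR-137, while let-7 is the family that marks differentiated cells.

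The deposited table held 457 mature names, of which 82 had no count in any of the 53 hippocampus and amygdala libraries and 299 had enough counts to be tested. Levels are given as CPM, the usual counts relative to the library total, here with TMM scaling factors. A call is an adjusted p under 0.05 in edgeR's quasi-likelihood test. The neuronal markers were abundant in both groups: miR-124a lay at a median of 8490 CPM (lowest 6118, highest 13221) in sham and a median of 6411 CPM (lowest 4788, highest 9903) at 1 day, and miR-128 at a median of 4982 CPM (lowest 4264, highest 7617) and a median of 5191 CPM (lowest 4389, highest 5853). The oligodendrocyte miRNA miR-338 was at a median of 801 CPM (lowest 463, highest 983) in sham. The liver miRNA miR-122-5p was at a median of 49.4 CPM (lowest 29.4, highest 182), and the epithelial miR-141 had a count of 0 in 11 of 18 sham and 4 of 10 1 day libraries. Markers of choroid plexus and motile ciliated cells varied widely between libraries of both groups: miR-204 from 93.7 to 1150 CPM in sham and from 192 to 1623 CPM at 1 day, and miR-34c from 4.39 to 789 and from 4.41 to 834 CPM.

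The libraries of the 2 groups also differed in depth. Totals ran from 7074097 to 11870652 counts (median 9578730) at 1 day and from 409637 to 10115115 (median 5500970) in sham, a ratio of geometric means of 2.12 (two-sided permutation test, 100000 resamples, p = 0.0003). Only 6 sham libraries had a total inside the 1 day range, and 12 lay below the lowest 1 day library. The library names carry animal codes whose meaning is not given, and these moved with depth: the 6 sham animals with codes beginning 11 had a median total of 3906510 counts and the 5 with codes beginning 12 or 13 had 8879820. The 10 injured animals split 5 and 5 over the same code starts, with medians of 9139530 and 10316800. Results are therefore also given against the 6 sham libraries with totals in the 1 day range (the deeper sham libraries) and within each code group, where n is small. The codes also differ in a letter. All 10 injured animals carry a U, and among the sham animals only those with codes beginning 14 or 16 do. Within codes 11 and within codes 12 or 13, injury and code letter thus cannot be told apart. Each library comes from another animal, so p-values measure the spread between animals.

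**Figure D1:**
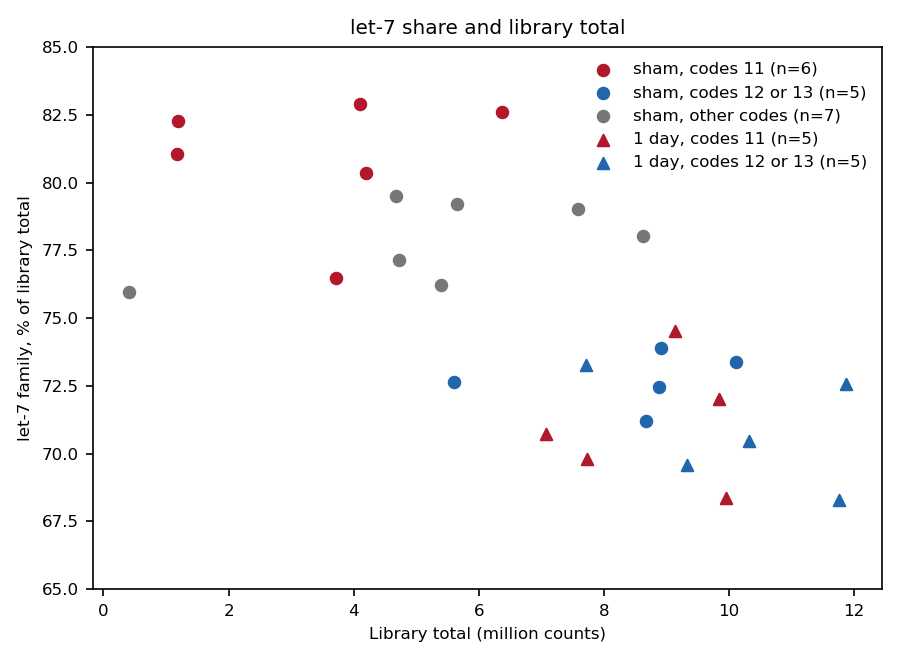
Share of the let-7 family in each library (y axis, percent of the library total) against the library total (x axis), with circles for sham, triangles for 1 day and colours for the start of the animal code. The sham libraries with codes 11 hold the highest shares, with a median of 81.7%, and those with codes 12 or 13 lie next to the 1 day libraries with a median of 72.7%.

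The let-7 family took most of every library, and a smaller part after injury. It made up 68.3% to 74.5% of counts at 1 day (71.0% ± 2.08, SD, n = 10) and 71.2% to 82.9% in sham (77.5% ± 3.69, SD, n = 18), a difference of -6.50 percentage points (permutation test, p = 6e-05). The ranges overlapped, and the overlap came from the sham libraries with codes 12 or 13, whose highest share was 73.9%. Among the 10 tested let-7 entries 3 rose and 2 fell, close to the shares over all 299 names tested (27.4% higher and 21.1% lower). The 2 that fell were let-7c and let-7e. let-7c, which shares a transcript with miR-99a, went from a median of 372602 CPM (lowest 265326, highest 585961) in sham to a median of 242813 CPM (lowest 190344, highest 298736), a log2 fold change of -0.72 (SE 0.15, adjusted p = 1.40e-04). let-7e, whose hairpin lies beside those of miR-99b and miR-125a, went from a median of 67404 CPM (lowest 34040, highest 86624) to a median of 32101 CPM (lowest 26834, highest 38149), a change of -0.87 (SE 0.16, adjusted p = 8.09e-05). All 10 1 day libraries were under the sham median for both, and 6 of them were under the lowest sham library for let-7e. let-7a, the most abundant miRNA beside let-7c, had medians of 268101 and 240932 CPM and a log2 difference of -0.17 (SE 0.09, adjusted p = 0.0901). let-7i-5p was higher, with medians of 25754 and 29264 CPM and a change of 0.22 (SE 0.07, adjusted p = 0.0104), and this call was lost without sham replicate 2 (adjusted p = 0.0528).

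Across the 299 names, 145 were called (48.5%), 82 higher (27.4%) and 63 lower (21.1%) at 1 day, or 140 where names with the same counts are taken once. With the fit limited to the 28 libraries the split was 59 higher and 82 lower of 289 names, and without sham replicate 2, the scaling of the rest being redone, it was 69 and 72. No name had groups that did not overlap (0 of 299, 0.0%), so each difference below is one of shifted and overlapping ranges. Most called names kept their direction in the restricted fits, at other sizes. With log10 of the library total as a covariate all 145 had the same sign, and the median ratio to the difference over all libraries was 0.703. With the 6 deeper sham libraries 143 of 144 had the same sign, with a median ratio of 0.584. Within codes 11 it was 142 of 142, with a ratio of 1.32, and within codes 12 or 13 it was 131 of 143, with a ratio of 0.446. Of the 5 sham libraries with codes 12 or 13, 4 are also among the 6 deeper ones. The number of calls fell much further. It was 57 with the covariate, 121 of 279 within codes 11, 4 of 288 within codes 12 or 13 (20 without 1 day replicate 6, and 0 without sham replicate 4, sham replicate 10, 1 day replicate 8 or 1 day replicate 10) and 0 of 301 with the 6 deeper sham libraries, where 53 names had an unadjusted p under 0.05.

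**Figure D2:**
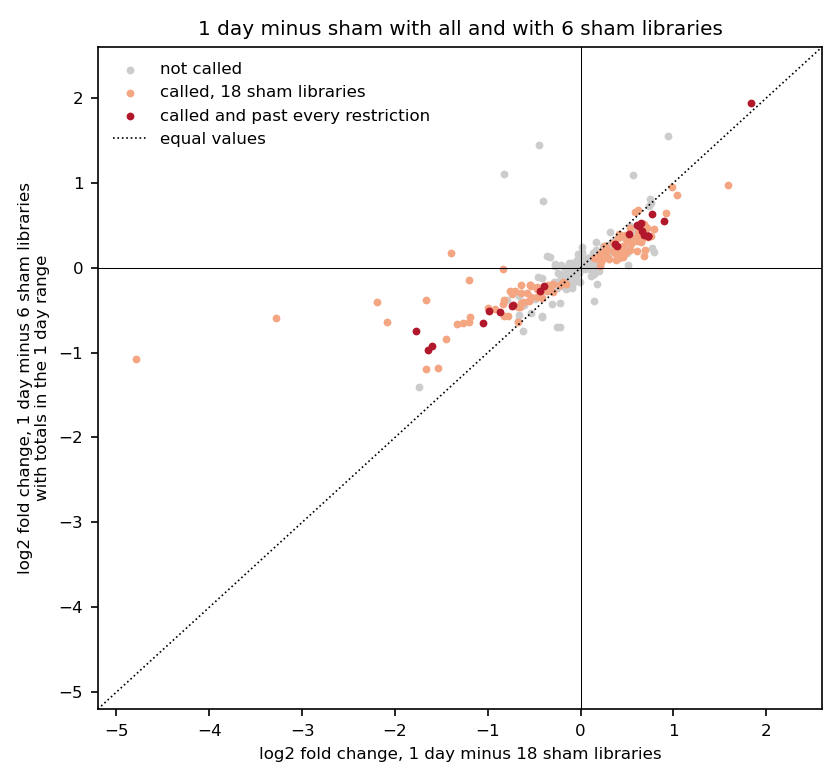
Log2 fold change of each tested miRNA at 1 day against all 18 sham libraries (x axis) and against the 6 sham libraries with totals in the 1 day range (y axis), which share the 10 injured libraries. Most called points lie on the same side of 0 in both and nearer to 0 on the y axis, and miR-10386 moves from -4.79 to -1.07.

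The 1 day difference was itself of another size in the 2 code groups for 36 of 299 names (12.0%) in 1 edgeR fit of the 21 libraries with codes 11, 12 or 13, a test added after the data were seen. In codes 11 the difference was more negative for 30 (10.0%) and more positive for 6 (2.01%). let-7e is an example: its median went from 73612 CPM in sham to 35794 at 1 day within codes 11 and from 38140 to 30998 within codes 12 or 13, and the log2 differences differed by -0.86 (SE 0.14, adjusted p = 4.86e-04). The injured libraries of the 2 code groups were close, and the sham libraries were not.

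The most abundant neuronal miRNA that rose was miR-9, which keeps neural progenitors from dividing and is also found in neurons and astrocytes. It went from a median of 8188 CPM (lowest 5462, highest 16367) in sham to a median of 14702 CPM (lowest 9255, highest 18010) at 1 day. The log2 fold change was 0.72 (SE 0.14, adjusted p = 9.87e-05), and the names miR-9-1 and miR-9-2 hold the same counts. All 10 injured libraries were above the sham median and 2 above the highest sham library. miR-137, which limits synaptic vesicle release and neuronal maturation, went from a median of 1055 CPM (lowest 771, highest 1428) to a median of 1447 CPM (lowest 1119, highest 2178), a change of 0.61 (SE 0.13, adjusted p = 2.04e-04). Here 5 injured libraries exceeded every sham library, and the change was 0.64 within codes 12 or 13 (unadjusted p = 0.00681). miR-124a, the most neuron-specific of the group, fell by 0.35 on the log2 scale (adjusted p = 0.0106). The neuron-enriched list had 15 tested entries, of which 6 were higher and 3 lower, against 27.4% higher and 21.1% lower over all names. Their median log2 change of 0.27 is that of miR-218, which was not called and is entered under 3 names with the same counts. miR-9 likewise accounts for 3 of the entries that were higher, beside miR-129a-3p, miR-137 and miR-138. With names repeated in this way, the entry counts do not give a share of distinct miRNAs. Whether the list exceeds the share of all names was not tested. Summed over its entries the list lay at 54421 to 92708 CPM (median 63677) in sham and 69400 to 87679 (median 79903) at 1 day. This sum counts miR-9 and miR-218 3 times each and miR-129a-5p again as miR-129b, so it overstates the list and the share of miR-9 in its shift. miR-212 and miR-132 come from 1 transcript that neuronal activity induces through CREB. miR-212 rose from a median of 5.24 CPM (lowest 1.07, highest 13.2) to a median of 11.1 CPM (lowest 8, highest 16.7), a change of 0.92 (SE 0.25, adjusted p = 0.00284). It reached a mean of 10 CPM in the 1 day group only, and called names under that level, such as miR-451, had larger increases. miR-132, at a median of 111 CPM (lowest 74.2, highest 146) and a median of 108 CPM (lowest 70.3, highest 136), had a log2 difference of -0.06 (SE 0.12, adjusted p = 0.656), which was 0.22 within codes 11. In the sham libraries miR-212 was higher in the deeper libraries, at a median of 7.74 CPM against 4.33 in the 12 others. miR-138, which acts at dendritic spines, had medians of 9143 and 11024 CPM (log2 change 0.21, SE 0.09, adjusted p = 0.0488), and its difference was -0.12 within codes 12 or 13. The call for miR-138 was lost in 18 of 28 fits with 1 library left out, with adjusted p up to 0.105.

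**Figure D3:**
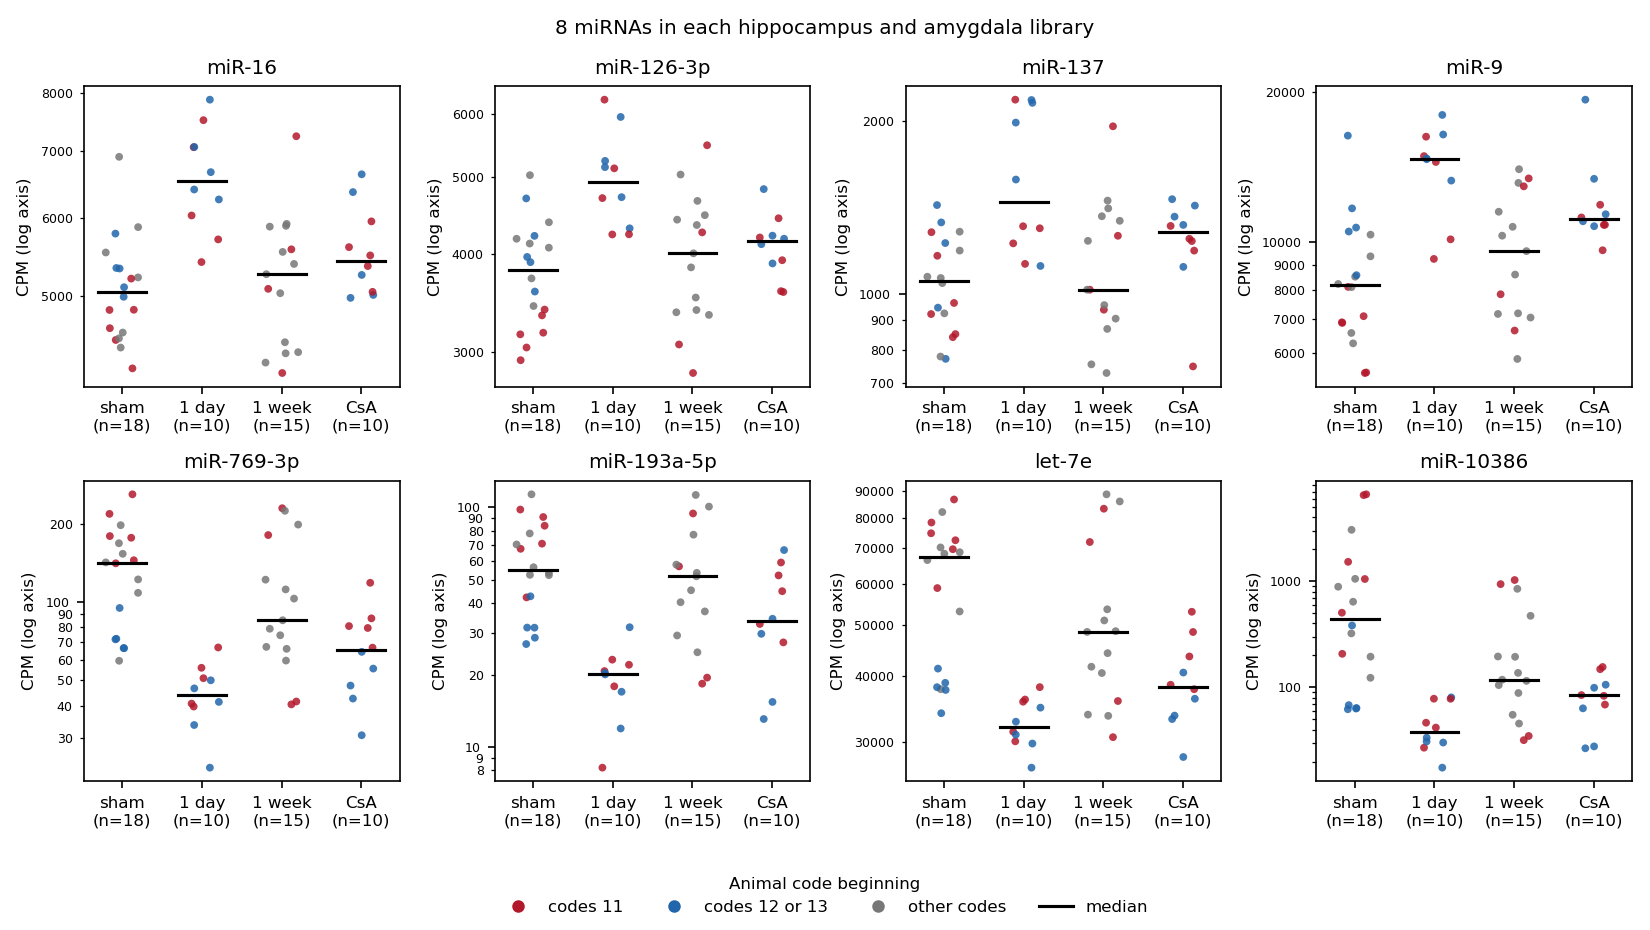
CPM of 8 miRNAs in each hippocampus and amygdala library (y axis, log scale) for the sham, 1 day, 1 week and CsA groups, with a bar at each median and colours for the start of the animal code. Medians of miR-16, miR-126-3p, miR-137 and miR-9 are highest at 1 day, those of miR-769-3p, miR-193a-5p, let-7e and miR-10386 are lowest there, and the groups overlap in all 8.

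miRNAs of blood and vessels were among those that rose. miR-451, which red blood cells make without Dicer, went from a median of 1.12 CPM (lowest 0, highest 5.67) in sham to a median of 4.3 CPM (lowest 0.126, highest 14.1), from 133 counts in 18 libraries to 536 in 10. The log2 fold change was 1.83 (SE 0.52, adjusted p = 0.00331), and it was 1.94 against the 6 deeper sham libraries (unadjusted p = 0.00623) and 1.84 within codes 12 or 13 (unadjusted p = 0.0128). No count was found in 4 of the sham libraries, and the 1 day library with the least had 0.126 CPM. The other red cell miRNAs were not called over all libraries: miR-144, which shares a transcript with miR-451, was at a median of 0.621 CPM (lowest 0, highest 2.38) and a median of 1.2 CPM (lowest 0.147, highest 3.53) with a difference of 0.94 (SE 0.60, adjusted p = 0.181). miR-486, also made in muscle, was at a median of 210.3 CPM (lowest 97.8, highest 287) and a median of 155 CPM (lowest 64, highest 231) with -0.42 (SE 0.18, adjusted p = 0.0562), and it was called lower in 9 of 28 fits with 1 library left out (adjusted p down to 0.0212). Summed, the 3 erythroid entries lay at 99.4 to 289 CPM (median 214) in sham and 67.4 to 236 (median 158) at 1 day, nearly all of it miR-486. miR-126-3p, the miRNA of endothelial cells that lies in an intron of EGFL7, went from a median of 3811 CPM (lowest 2933, highest 5024) to a median of 4918 CPM (lowest 4228, highest 6257), a change of 0.39 (SE 0.09, adjusted p = 2.99e-04). All 10 injured libraries lay above the sham median and 5 above the highest sham value. Of the 5 tested endothelial entries 3 were higher and none lower (all names: 27.4% higher and 21.1% lower). The 3 were both arms of miR-126 and the minor arm miR-221-5p. The major arm miR-221-3p and miR-222 had differences of -0.02 and -0.06 (adjusted p = 0.867 and 0.657). The call of miR-126-5p was lost in 14 of 28 fits with 1 library left out (adjusted p = 0.0439, at most 0.145). The mural and fibroblast list had 8 tested entries, of which 2 were higher and 0 lower (all names: 27.4% higher and 21.1% lower), and these are miR-199a-3p and miR-199b-3p, which hold the same counts (medians 22.8 and 32.3 CPM, log2 change 0.63, SE 0.15, adjusted p = 6.90e-04).

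The immune and glial lists are small, and their counts are read against 27.4% higher and 21.1% lower over all names. miR-21-5p, which STAT3 and AP-1 induce in reactive astrocytes and microglia, went from a median of 107.2 CPM (lowest 58.3, highest 131) to a median of 134 CPM (lowest 83.7, highest 201), a change of 0.42 (SE 0.13, adjusted p = 0.00593), and 6 of the 10 injured libraries exceeded every sham library. miR-155-5p, induced by Toll-like receptor and NF-κB signalling, was at a median of 199.6 CPM (lowest 162, highest 308) and a median of 231 CPM (lowest 196, highest 283), with a difference of 0.17 (SE 0.08, adjusted p = 0.0816). It was 0.30 against the deeper sham libraries (unadjusted p = 0.00465). The call was made where same-count names were merged, where the code start was a term and without sham replicate 8. Over the 28 fits with 1 library left out its adjusted p ran from 0.024 to 0.297. miR-146b was at a median of 5.34 CPM (lowest 0, highest 12.3) and a median of 7.23 CPM (lowest 4.78, highest 20.1) (difference 0.60, SE 0.30, adjusted p = 0.0824). miR-146a-5p went the other way, with a difference of -0.62 (adjusted p = 0.181), and miR-21-3p had 0.08 (adjusted p = 0.816). Of 5 tested entries of the glial inflammation list 1 was higher and 0 lower. Among the leukocyte miRNAs, miR-223 of neutrophils and monocytes rose from a median of 6.28 CPM (lowest 1.07, highest 12.1) to a median of 7.96 CPM (lowest 5.55, highest 13) (log2 change 0.48, SE 0.19, adjusted p = 0.0351), a call lost in 7 of 28 fits with 1 library left out, the highest adjusted p being 0.0963. miR-142-5p rose by 0.48 (SE 0.16, adjusted p = 0.0104), while its partner arm miR-142-3p had a difference of -0.46 (SE 0.20, adjusted p = 0.051). miR-142-3p was called lower in 13 of 28 fits with 1 library left out (adjusted p down to 0.0157). miR-150 of lymphocytes had medians of 76.9 and 88.3 CPM and a difference of 0.17 (SE 0.13, adjusted p = 0.247). Of 5 tested entries in that list 2 were higher and none lower over all libraries. The 3 tested oligodendrocyte entries had log2 differences of -0.43, -0.23 and -0.27, and none was called.

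The family of miR-15, miR-16, miR-103 and miR-107, whose seeds are alike and which restrain the cell cycle and BCL2, rose in 4 of 7 tested members, against 27.4% of all names. miR-16 went from a median of 5052 CPM (lowest 4235, highest 6904) to a median of 6533 CPM (lowest 5414, highest 7878), a change of 0.37 (SE 0.07, adjusted p = 1.40e-04), with all 10 injured libraries above the sham median. The change was 0.36 with the covariate (adjusted p = 0.00702), 0.35 within codes 12 or 13 (unadjusted p = 0.0015) and 0.28 against the 6 deeper sham libraries (unadjusted p = 0.00575). miR-15b, which RefSeq places beside miR-16 inside SMC4, went from a median of 156 CPM (lowest 88.3, highest 264) to a median of 273 CPM (lowest 211, highest 297), a change of 0.68 (SE 0.14, adjusted p = 1.79e-04), and 6 of 10 injured libraries exceeded every sham library. miR-103 and miR-107, which target Dicer among others, changed by 0.36 (SE 0.08, adjusted p = 4.55e-04) and 0.54 (SE 0.11, adjusted p = 1.79e-04), from medians of 4410 and 779 to 5474 and 1216 CPM. Both changes were larger within codes 11 than within codes 12 or 13, by 0.37 (SE 0.12, adjusted p = 0.0379) and 0.53 (SE 0.14, adjusted p = 0.0174). No tested member was lower, and the list had a median log2 change of 0.36 against 0.06 over all 299 names.

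The miR-23, miR-24 and miR-27 clusters, a pair of paralogous transcripts active in glia and vessels, had 6 tested entries, of which 5 were higher and 0 lower, against 27.4% higher and 21.1% lower over all names (median log2 change 0.46). miR-27a rose from a median of 19.7 CPM (lowest 10.7, highest 40.1) to a median of 35.7 CPM (lowest 27.5, highest 48.6) (log2 change 0.76, SE 0.17, adjusted p = 3.80e-04). miR-23b rose from a median of 194 to 309 CPM (0.60, SE 0.12, adjusted p = 1.37e-04) and miR-27b-3p from 97.8 to 138 (0.55, SE 0.12, adjusted p = 2.99e-04). miR-23a rose from 64 to 80.3 (0.37, SE 0.11, adjusted p = 0.00436) and miR-24-3p from 991 to 1178 (0.27, SE 0.09, adjusted p = 0.00963). Against the deeper sham libraries these were 0.37, 0.32, 0.33, 0.24 and 0.13. All 5 were above 0, and miR-27b-3p had an unadjusted p under 0.05 (0.0395). miR-29a-3p, the astrocyte-rich member of its family, rose from a median of 1968 to 2581 CPM (0.40, SE 0.12, adjusted p = 0.00639) as 1 of 3 tested members.

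Other increases of at least 0.65 on the log2 scale came from several transcripts. miR-374a-5p and miR-374b-5p lie in the X-linked transcript FTX and have near-identical sequences, so reads could be shared. miR-374a-5p went from a median of 23.2 CPM (lowest 7.06, highest 36.2) to a median of 39 CPM (lowest 24.3, highest 59) (0.77, SE 0.18, adjusted p = 4.84e-04). The change was 0.71 within codes 12 or 13 (unadjusted p = 0.00636), and miR-374b-5p changed by 0.71 (SE 0.21, adjusted p = 0.00461). In that cluster 3 of 6 tested entries were higher and 1 lower (all names: 27.4% higher and 21.1% lower). miR-363 and miR-17-3p, from the oncogenic miR-17-92 clusters, rose from medians of 5.94 and 16.1 to 10.1 and 26.1 CPM , log2 changes of 0.79 (SE 0.27, adjusted p = 0.0133) and 0.73 (SE 0.19, adjusted p = 0.00162). In these clusters 4 of 11 tested entries were higher and 1 lower, near the shares over all names (27.4% higher and 21.1% lower). miR-30c-5p rose from a median of 90.8 CPM (lowest 64.2, highest 156) to a median of 146 CPM (lowest 118, highest 207) (0.69, SE 0.14, adjusted p = 2.04e-04). miR-450c-3p rose from a median of 12 CPM (lowest 6.29, highest 21.4) to a median of 19 CPM (lowest 14.9, highest 25.4) (0.65, SE 0.15, adjusted p = 4.70e-04). miR-221-5p, miR-31 and miR-505 rose by 0.70, 0.68 and 0.68 (adjusted p = 0.00392, 0.00508 and 0.00336), and within codes 12 or 13 their differences were 0.31, 0.19 and 0.09 (unadjusted p = 0.105, 0.371 and 0.581).

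**Figure D4:**
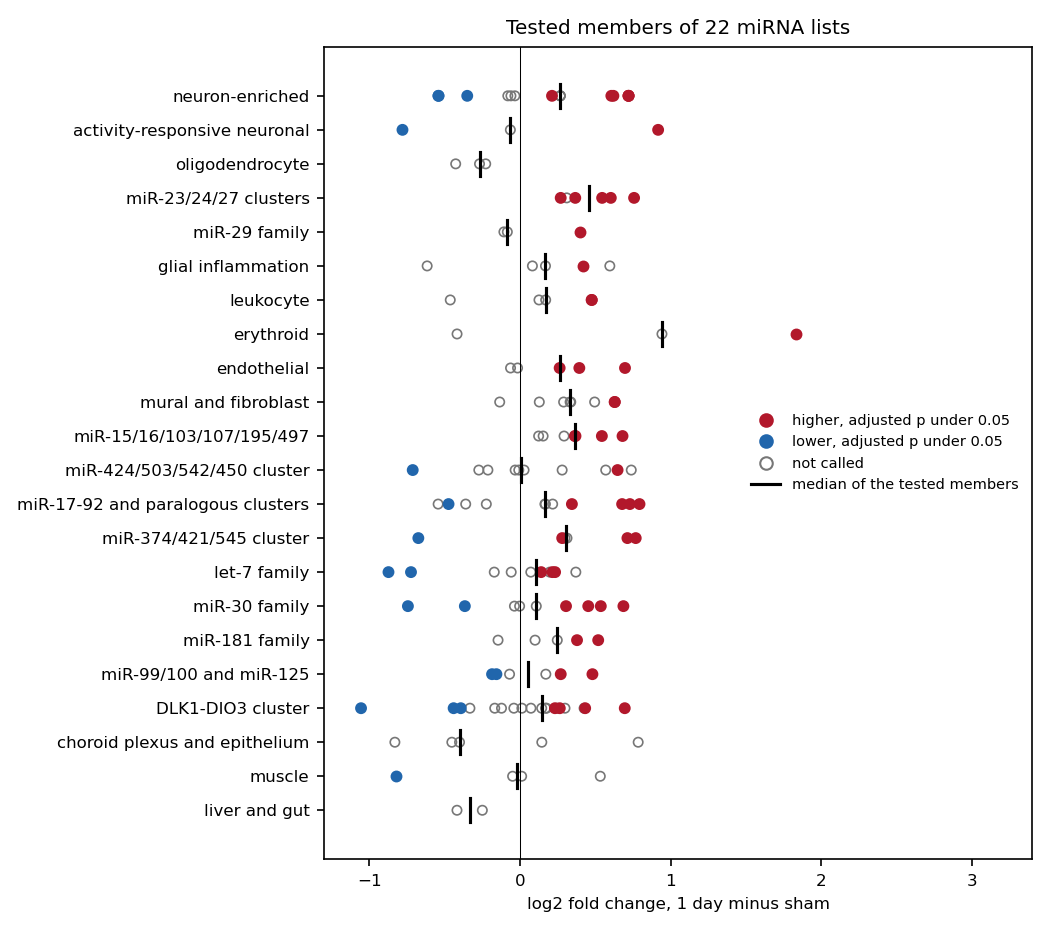
Log2 fold change at 1 day against sham (x axis) of each tested member of 22 miRNA lists (y axis), filled where the adjusted p is under 0.05, with a bar at the median of the list. The miR-23/24/27 list and the list headed by miR-15 and miR-16 hold filled points only to the right of 0, as do the endothelial, leukocyte, miR-181 and other lists. The DLK1-DIO3, let-7 and miR-30 lists, among others, hold them on both sides.

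Among the miRNAs with the largest decreases were 4 whose sham levels fell with the library total by both the Pearson and the Spearman test. miR-10386, a porcine entry, went from a median of 444 CPM (lowest 62.3, highest 6590) to a median of 37.7 CPM (lowest 17.5, highest 80.6), a log2 change of -4.79 (SE 0.82, adjusted p = 3.95e-05), the largest among called miRNAs with at least 10 CPM. Over the 18 sham libraries log2 CPM fell with log10 of the total (Pearson r = -0.86, Spearman rho = -0.95, permutation p = 2e-05 and 1e-05, the latter the smallest that 100000 permutations can give, and 1.70e-04 and 1.13e-04 after adjustment over 34 relations). Without the 2 libraries farthest from the median total r was -0.93, within the 6 libraries of codes 11 -0.96 and within the 7 of other codes -0.82. Against the deeper sham libraries, at a median of 66 CPM, the change was -1.07 (unadjusted p = 0.0832). miR-574-5p, miR-4331-3p and miR-4332 also fell with the total in sham, with Pearson r of -0.91, -0.94 and -0.86 and Spearman rho of -0.86, -0.83 and -0.89 (adjusted permutation p at most 0.00034; r without the 2 farthest -0.80, -0.84 and -0.82). Within codes 11 these r were -0.57, -0.89 and -0.44. Their 1 day changes of -1.66, -2.20 and -3.28 became -0.38, -0.41 and -0.59 against the deeper sham libraries. Leaving out sham replicate 6 alone moved miR-574-5p to -1.10. Of the 34 relations, the Spearman test passed after adjustment for 10 miRNAs that fell with the total and 4 that rose with it, and the Pearson test for 4 and 1. Besides the 4 above, the 10 hold miR-885-3p (rho -0.75), miR-423-5p (-0.63), miR-1307 (-0.62), miR-193a-5p (-0.62), miR-296-3p (-0.62) and let-7c (-0.59), for which the Pearson test did not pass. By the Pearson test the 1 that rose was miR-212 (r = 0.62, adjusted permutation p = 0.0328), with r of 0.55 within codes 11 and a rho of 0.50 (adjusted permutation p = 0.0707). The 4 that rose by the Spearman test were all higher at 1 day: miR-17-3p (rho 0.73, adjusted permutation p = 0.00529), miR-31 (0.72, 0.00529), miR-9 (0.68, 0.0124) and miR-221-5p (0.55, 0.0465). Their Pearson r were 0.52, 0.54, 0.46 and 0.33 (adjusted permutation p from 0.0836 to 0.392; without the 2 farthest libraries 0.76, 0.61, 0.53 and 0.65), and within codes 11 they were 0.62, -0.21, 0.25 and 0.18. For miR-16, miR-126-3p and miR-451 r over the 18 sham libraries was -0.30, -0.02 and -0.0058 and rho 0.25, 0.35 and 0.12 (permutation p from 0.151 to 0.982, adjusted from 0.197 to 0.982). Without the 2 farthest libraries these r were 0.28, 0.51 and 0.31, and within codes 11 they were -0.65, -0.92 and -0.24, so for miR-16 and miR-126-3p the pooled values do not describe the code groups. The 5 sham libraries of codes 12 or 13 are too few for such a value.

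Other decreases differed in how far they depended on the sham libraries used, and none was called against the deeper ones after adjustment. miR-769-3p went from a median of 141 CPM (lowest 59.5, highest 259) to a median of 44 CPM (lowest 23.1, highest 66.9), a change of -1.60 (SE 0.27, adjusted p = 3.95e-05), and 9 of the 10 injured libraries lay under every sham library. It was -0.95 within codes 12 or 13 (edgeR adjusted p = 0.039, a call lost without any of the 4 libraries named above) and -0.93 against the deeper sham libraries (unadjusted p = 0.0043). miR-193a-5p, known as a tumour suppressor, went from a median of 54.8 CPM (lowest 26.9, highest 113) to a median of 20.2 CPM (lowest 8.21, highest 31.6) (-1.64, SE 0.28, adjusted p = 3.95e-05). Again 9 of 10 lay under every sham library, and the change was -0.70 and -0.97 in the same fits. miR-885-3p, whose hairpin lies in the neuronal calcium pump gene ATP2B2, went from a median of 189 CPM (lowest 50.5, highest 304) to a median of 49.5 CPM (lowest 26.2, highest 85.8) (-1.77, SE 0.32, adjusted p = 8.09e-05). Its medians went from 239.9 to 50 CPM within codes 11 and from 58.2 to 49 within codes 12 or 13, and its change was -0.75 against the deeper sham libraries (unadjusted p = 0.0456). miR-139-3p (in PDE2A), miR-1307 and miR-296-3p fell by 1.26, 1.20 and 1.19 (adjusted p = 8.09e-05, 2.93e-04 and 9.87e-05), with differences of -0.42, -0.42 and -0.23 within codes 12 or 13 and of -0.65, -0.64 and -0.59 against the deeper sham libraries (unadjusted p = 0.0253, 0.0612 and 0.0351). miR-92b-5p and miR-423-5p, from medians of 20 and 2326 to 6.26 and 826 CPM, fell by 1.66 and 1.33 over all libraries (adjusted p = 5.53e-04 and 2.93e-04). Within codes 12 or 13 they differed by -0.06 and -0.11 (unadjusted p = 0.823 and 0.703), and against the deeper sham libraries by -1.19 and -0.66 (unadjusted p = 0.0169 and 0.0728). The muscle miRNA miR-206 also fell, from a median of 52.5 CPM (lowest 24.6, highest 92.7) to a median of 28.8 CPM (lowest 21.3, highest 51.7) (-0.82, SE 0.20, adjusted p = 8.16e-04), while miR-1 lay at a median of 60.6 CPM (lowest 33.6, highest 122) and a median of 49.6 CPM (lowest 33.1, highest 164).

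The imprinted DLK1-DIO3 cluster, the largest miRNA cluster of placental mammals and active in neurons, had 19 tested entries, of which 4 were higher and 3 lower. Both shares lie near those over all names (27.4% higher and 21.1% lower), and the median log2 change was 0.14. The 3 lower entries were miR-370, miR-432-5p and miR-382. miR-370 went from a median of 24 CPM (lowest 16.1, highest 52) to a median of 11.7 CPM (lowest 9.14, highest 20.2) (-1.06, SE 0.21, adjusted p = 1.16e-04). At 1 day 7 of 10 libraries lay under every sham library, and miR-370 was among the 4 names called within codes 12 or 13 (-0.85, adjusted p = 0.039), a call lost in the same 4 fits. Both other members were far more abundant. miR-432-5p went from a median of 5515 CPM (lowest 3938, highest 8434) to a median of 4194 CPM (lowest 3428, highest 4845) (-0.44, SE 0.09, adjusted p = 2.46e-04). miR-382 went from a median of 4576 CPM (lowest 3391, highest 6694) to a median of 3823 CPM (lowest 3085, highest 4296) (-0.39, SE 0.09, adjusted p = 5.01e-04).

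A set of 22 miRNAs passed every restriction, a rule set after the values were seen: called over all libraries, with the covariate and within codes 11, and with an unadjusted p under 0.05 and the same sign within codes 12 or 13 and against the deeper sham libraries. Counted by name they are 24 of 299 (8.03%), 12 of the 22 higher and 10 lower. The higher ones were miR-9, miR-15b, miR-16, miR-126-3p, miR-137, miR-181a, miR-374a-5p, miR-450c-3p, miR-451, miR-574-3p, miR-664-3p and miR-1271-5p. The lower ones were let-7c, let-7e, miR-30b-3p, miR-193a-5p, miR-370, miR-382, miR-432-5p, miR-769-3p, miR-885-3p and miR-2366. Against the deeper sham libraries their changes ran from -0.97 for miR-193a-5p to 1.94 for miR-451. miR-181a, a miRNA of neurons and lymphocytes, had medians of 2772 and 3684 CPM (0.52, SE 0.15, adjusted p = 0.00329). miR-2366 had medians of 1171 and 532 CPM (-0.99, SE 0.18, adjusted p = 8.65e-05). The medians were 6.94 and 9.89 CPM for miR-664-3p (0.66, SE 0.17, adjusted p = 0.00141) and 4.04 and 8.33 CPM for miR-1271-5p (0.90, SE 0.22, adjusted p = 7.76e-04). The restricted fits reuse all or part of the 10 injured libraries and of the sham libraries by which the names were called. They are thus not independent of that call or, for most, of one another. By the Spearman test let-7c, miR-193a-5p and miR-885-3p fell with the library total in sham, and miR-9 rose with it (above). Not all of the 22 were tested for that relation.

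The arms of a hairpin are made in equal numbers. Both are counted in the same library, so their ratio does not depend on how libraries are scaled. The relation of the ratios to the library total was not tested. Of 29 arm pairs with at least 5 counts for each arm in all 28 libraries, 17 had a ratio that differed between the groups (58.6%; permutation tests adjusted over the 29, chosen after the data were seen), 13 with more 5p at 1 day and 4 with less. miR-574 was the 1 pair of 29 (3.45%) whose groups did not overlap: the log2 ratio of 5p to 3p was 3.46 to 7.48 (median 4.33) in sham and 2.17 to 3.46 (median 2.70) at 1 day. The closest libraries of the 2 groups nearly touched. The highest sham ratio was that of sham replicate 6, which had the lowest total, and the sham level of miR-574-5p fell with the total (above). The mean difference was -1.80 (permutation p = 2e-05, the smallest 100000 resamples can give; adjusted 1.66e-04). It was -1.10 within codes 12 or 13 (exact permutation p = 0.00794, the smallest 5 against 5 can give) and -0.88 against the deeper sham libraries (exact permutation p = 2.50e-04). The 2 arms were called in opposite directions, miR-574-3p rising from a median of 12.5 CPM (lowest 6.8, highest 17.5) to a median of 19.2 CPM (lowest 12.6, highest 24.5). The other pairs with arms called in opposite directions, 6 in all, were miR-30b, miR-30c with either of its 3p entries, miR-628 and miR-885.

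**Figure D5:**
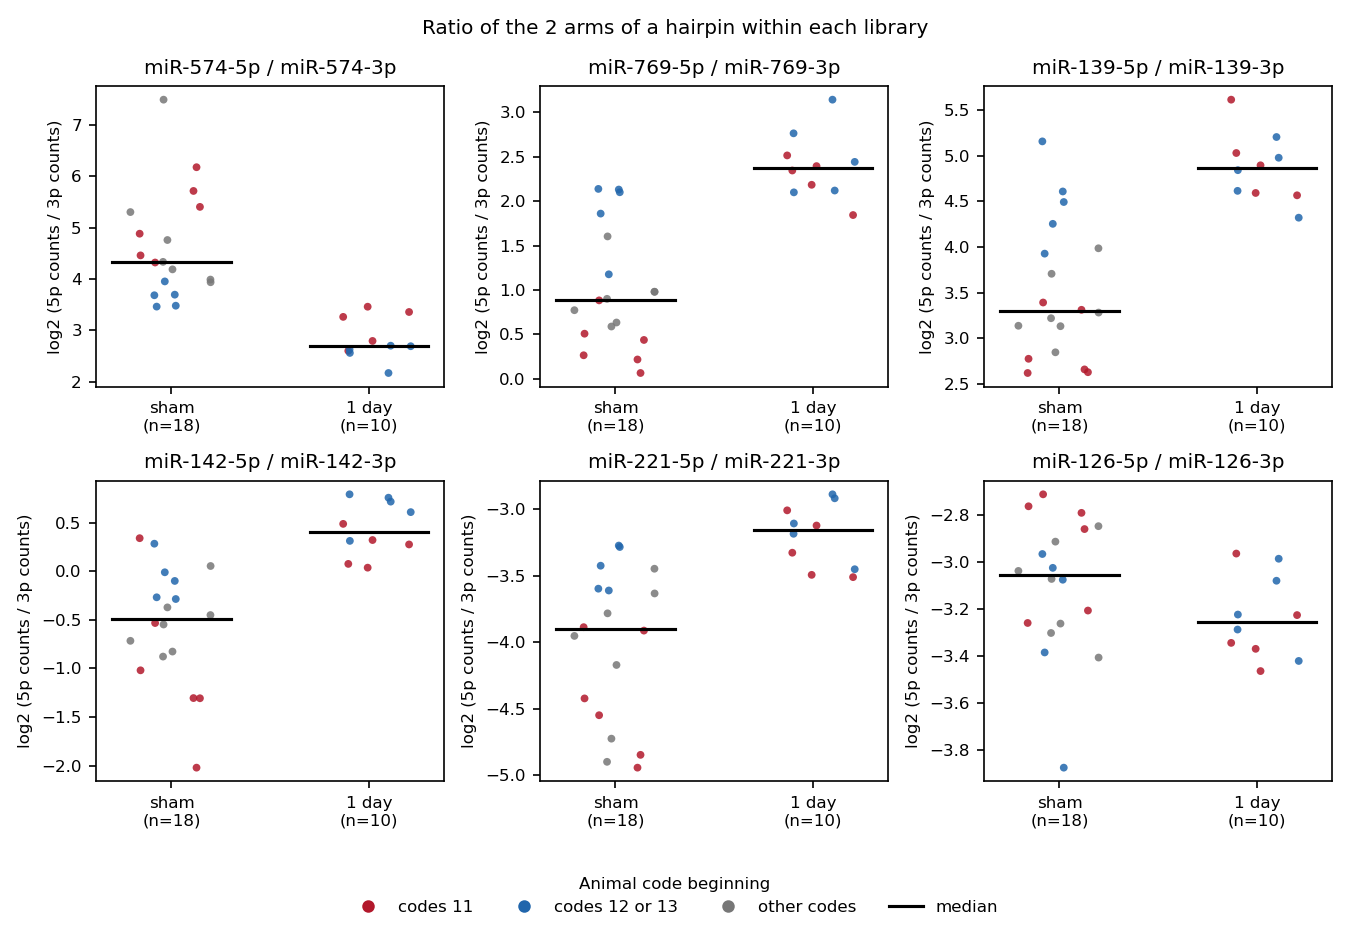
Log2 ratio of 5p to 3p counts (y axis) of 6 hairpins in each of the 18 sham and 10 1 day libraries, with a bar at each median and colours for the start of the animal code. The ratio of miR-574 is lower in every 1 day library than in any sham library, those of miR-769, miR-139, miR-142 and miR-221 lie above the sham median in all 10 1 day libraries and overlap with sham, and that of miR-126 overlaps broadly.

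For miR-142, whose hairpin is transcribed in blood cells, the ratio of 5p to 3p went from a mean of -0.55 ± 0.61 (SD, n = 18) to 0.44 ± 0.28 (SD, n = 10, permutation p = 2e-05, adjusted 1.66e-04), so that 5p was the minor arm in most sham libraries and the major arm in all injured ones. The difference was 0.71 within codes 12 or 13 (exact permutation p = 0.00794) and 0.57 against the deeper sham libraries (exact permutation p = 0.002, adjusted 0.029). For miR-221, a miRNA of endothelium and smooth muscle, 3p was the major arm throughout and the mean log2 ratio rose by 0.82 (adjusted permutation p = 1.66e-04), and by 0.24 against the deeper sham libraries. Ratios of miR-769, miR-139 and miR-885 rose by 1.37, 1.36 and 2.20 (adjusted permutation p = 1.66e-04 each), and by 0.69, 0.62 and 1.07 against the deeper sham libraries. Of the 17 pairs, 17 kept their direction within codes 11, 16 within codes 12 or 13 and 17 against the deeper sham libraries, with an exact permutation p under 0.05 in 15, 6 and 12. These subsets reuse libraries by which the pairs were called, so agreement in direction is partly built in. After adjustment 14, 0 and 2 passed. With at least 20 counts of each arm in every library 13 pairs could be tested, of which 9 differed.

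RefSeq (Sscrofa11.1, used for names and neighbours only) gave 32 groups of hairpins within 10000 bases of one another that had at least 2 tested names. In 26 of them a name was called, in 6 names were called in both directions, and in 2 every tested name was called in 1 direction. Over all 299 names 48.5% were called, so a call in most groups is no trait of neighbouring hairpins. Groups of names drawn at random were not examined. Differences between neighbours were not tested. let-7c fell and both arms of miR-99a beside it were higher, although the miR-99a-5p call (log2 change 0.27) was lost without 1 day replicate 10 or without sham replicate 2, with a change as low as 0.12 and adjusted p up to 0.271. It was also lost with RLE factors, DESeq2 or no filter, and in the restricted fits. let-7e and miR-125a beside it were both lower, the latter by a log2 change of -0.19 (adjusted p = 0.0441) that was lost in 15 of 28 fits with 1 library left out, and miR-99b had a difference of -0.07. miR-144 and miR-451 both had positive differences, and only the latter was called. The 3 miRNAs of the miR-23a, miR-27a and miR-24 cluster and both of the miR-15b and miR-16 cluster were higher, although miR-24-3p is cut from both miR-23 clusters.

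The 1 day and 1 week groups differed in 91 of 299 names (30.4%), 54 higher (18.1%) and 37 lower (12.4%) at 1 day. The contrast compares no sham library, although the sham libraries of the same fit enter its filter, scaling and dispersion. It shares the 1 day libraries, and it is not matched for depth or code. Totals had a median of 7031130 counts at 1 week (lowest 3096140) and 9578730 at 1 day (lowest 7074097). No 1 week animal has a code beginning 12 or 13. With log10 of the library total as a covariate 34 names were higher and 30 lower, and no fit restricted by depth or code was made. The majority direction turned with the scaling and the filter: 39 were higher and 42 lower with RLE factors, and 29 higher and 47 lower with no filter. The smallest p values belonged to miR-193a-5p, miR-769-3p and miR-139-3p. miR-193a-5p had a 1 week median of 51.6 CPM, near that of sham, and had a log2 difference (1 day minus 1 week) of -1.48 (SE 0.29, adjusted p = 9.63e-04). miR-769-3p had a 1 week median of 85.1 CPM and a difference of -1.31 (SE 0.27, adjusted p = 0.00154), and miR-139-3p of 824 CPM and -1.04 (SE 0.24, adjusted p = 0.0029). Among the higher miRNAs, miR-16 (0.33, SE 0.08, adjusted p = 0.0029), miR-126-3p (0.32, SE 0.09, adjusted p = 0.00632), miR-137 (0.49, SE 0.13, adjusted p = 0.00506) and miR-451 (1.65, SE 0.51, adjusted p = 0.0126) also exceeded their 1 week levels, whose medians were 5264, 4002, 1017 and 1.2 CPM. miR-21-5p was not called there, with a difference of 0.24 (SE 0.13, adjusted p = 0.151). In the CsA group the medians were 5430 CPM for miR-16, 4143 for miR-126-3p, 1280 for miR-137, 11114 for miR-9, 4.2 for miR-451, 33.5 for miR-193a-5p and 65.6 for miR-769-3p. Time and treatment cannot be told apart in that group, and no test was made.

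In the frontal lobe of the same 28 animals no name was called for a 1 day difference of another size (0 of 307, 0.0%, edgeR interaction with the animal as a block). At an unadjusted p under 0.05 there were 5 names, and 6 with RLE factors or with no filter. A lack of calls does not show equal sizes. The interaction was -1.12 for miR-10384 (SE 0.53), and 1 frontal lobe sham library had 98996 counts. The smallest p values were those of miR-130b-3p, miR-7134-3p and miR-10384. miR-130b-3p rose in hippocampus and amygdala from a median of 336 to 434 CPM (0.39, SE 0.09, adjusted p = 5.71e-04), and the log2 difference minus that in the frontal lobe was -0.25 (unadjusted p = 0.0169). miR-7134-3p fell by 0.65 (adjusted p = 0.00312), against -1.20 in the frontal lobe (interaction 0.47, unadjusted p = 0.0317). In the frontal lobe miR-16, miR-126-3p, miR-137 and miR-769-3p had log2 differences of 0.27, 0.32, 0.51 and -1.65. These libraries share their animals, and so their codes, with those of hippocampus and amygdala.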

How the data were processed

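Small RNA libraries were made with a QIAseq miRNA kit from RNA of formalin-fixed, paraffin-embedded brain, per the labels' protocols. Trimmomatic 0.39 and cutadapt 1.9.1 are named in the submitters' processing notes, with no role; for the aligner, the counter and the collapsing of molecular identifiers the labels name nothing. The authors deposited raw counts per miRNA and precursor for all 105 libraries. Columns were matched to samples by title. Of 542 rows, 85 repeats of a mature name were left out and the row with the highest total kept, which left 457 names; 9 names hold the same counts as another.

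All 53 hippocampus and amygdala libraries were fitted in 1 model with edgeR 4.0.16 (R 4.3.3; TMM factors, filterByExpr with a minimum count of 10, robust quasi-likelihood test), with p-values adjusted by Benjamini-Hochberg over the 299 names tested and a threshold of 0.05. Every adjusted p not said to come from a permutation test is from edgeR. Permutation tests are two-sided, exact in the small subsets and with 100000 resamples otherwise (scipy 1.17.1), and relations with the library total used log2(CPM + 0.5). Arm ratios were taken from the counts within a library. The edgeR step was tested on simulated data. The text names the 12 largest changes in each direction with at least 10 CPM, the 10 most abundant miRNAs, the members of 22 lists with the smallest p, other arms, and the 3 smallest p of each other test; names were drawn from these, and others are said to be chosen after their values were seen or come from the restricted fits. The members and lists were chosen with earlier results of these data known. Mature sequences and base composition were not used here. Alternatives were other factors, DESeq2 1.42.0, other filters, depth as a covariate, subsets by depth and animal code, and each library left out in turn. Counting error was not measured apart from the spread between animals. In the shallowest library, with 409637 counts, 10 CPM stands for only a few counts, so names well above 10 CPM are affected there too.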

Additional observations from a re-analysis of the deposited data

Results flagged for a closer look

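Single libraries stood apart from the rest of their group in 8 of 162 groups of 10 libraries examined, where chance flags about 1 in 20 groups. One 1 day library, replicate 10, was the highest for 4 miRNAs: 5720 CPM of miR-99a-5p against 3128 in the next library, 35468 CPM of miR-26a against 26571, 135.7 CPM of miR-150 against 102, and 8498 CPM of miR-181a against 5252. Replicate 2 of the 1 day group had 20.1 CPM of miR-146b against 12.2 in the next. In the CsA group replicate 1 had 19327 CPM of miR-9 against 13404, replicate 5 had 968 CPM of miR-204 against 579, and replicate 8 had the lowest miR-137, at 748 CPM against 1115.

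For 24 miRNAs of the text the 1 day difference was of another size in animals with codes beginning 11 than in those with codes beginning 12 or 13, by the interaction term of the edgeR fit. The values are the log2 difference in codes 11 minus that in codes 12 or 13. The decrease was larger, or the increase smaller, in codes 11 for 20 of them. The most unequal were -3.95 for miR-10386, -2.67 for miR-92b-5p, -2.36 for miR-4332, -1.86 for miR-4331-3p, -1.84 for miR-423-5p and -1.49 for miR-296-3p. Next came -1.41 for miR-193a-5p, -1.38 for miR-885-3p, -1.32 for miR-139-3p, -1.296 for miR-1307, -1.15 for miR-574-5p and -1.06 for miR-7134-3p. The others were -0.998 for miR-769-3p, -0.90 for let-7c, -0.86 for let-7e, -0.86 for miR-30c-1-3p, -0.81 for miR-2366, -0.78 for miR-30b-3p, -0.65 for miR-30c-3p and -0.62 for let-7a. The value was positive for 4: 0.57 for miR-138, 0.53 for miR-107, 0.37 for miR-103 and 0.39 for miR-139-5p.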

How the results depend on the processing

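The count of names called at 1 day against sham, 145 (82 higher and 63 lower), was 142 with RLE factors, 152 with DESeq2, 138 with no filter, 141 with the 28 libraries only, 139 without let-7 and 121 within codes 11. It fell to 57 (27 higher, 30 lower) with log10 of the total as a covariate, 4 (0 higher, 4 lower) within codes 12 or 13, and 0 (0 higher, 0 lower; 53 at an unadjusted p under 0.05) without the 12 sham libraries of low total, where fewer libraries are compared. Leaving out each of the 28 libraries gave 130 to 161 calls, 69 to 92 higher and 55 to 72 lower. Within codes 12 or 13 it gave 0 to 20, where 1 day replicate 6 decides the upper value. Against 1 week, 54 higher and 37 lower names became 29 and 47 with no filter and 34 and 30 with the covariate; the cause was not tested. Arm ratio calls went from 17 to 0 within codes 12 or 13, 2 against the deeper sham libraries and 9 with at least 20 counts per arm, where fewer pairs could be tested.

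Single miRNAs changed sign within codes 12 or 13: let-7a to 0.15, miR-150 to -0.023, miR-138 to -0.12, miR-30b-5p to -0.023, miR-7134-3p to 0.048, miR-99b to 0.098 and miR-139-5p to -0.11. miR-150 was -0.018 against the deeper sham libraries, and miR-132 was 0.22 within codes 11. Leaving out 1 library gave miR-99b from -0.13 to 0.0058. The cause was not tested.

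No paired analysis was possible because the sham and 1 day libraries come from different animals and the labels give them no shared replicate numbers. Offsets for base composition, and the relation of fold change to base composition, were not run, since no mature sequences were used here. Depth limits the low miRNAs most: miR-451 had 133 counts over the 18 sham libraries.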
